A study of Mus musculus with 6 samples.

Results

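The genes of bone morphogenetic protein (BMP) signalling described here are 10 of the 55487 genes listed in an RNA-seq count table of mouse colon epithelial cells (IECs). They are the ligands Bmp2 and Bmp4, the receptors Bmpr1a and Bmpr2, the signal transducer Smad1, the inhibitory SMADs Smad6 and Smad7, and the target genes Id1, Id2 and Id3. They were chosen by gene symbol, and each symbol matched 1 row of the table. The comparison asks whether these genes differ in level between IECs that keep Nsd2, which encodes a histone H3 lysine methyltransferase, and IECs in which it was targeted.

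Of the 6 libraries, 3 came from Nsd2 f/f mice (genotype label NSD2-FF, titled WT), whose Nsd2 alleles are flanked by loxP sites, and 3 from Nsd2 Vil-KO mice (NSD2-FF-VILCRE), which carry the same alleles and Cre under the Villin promoter. That promoter is active in the intestinal epithelium, so other cells in a preparation keep Nsd2. All 6 libraries came from mice on a C57BL/6J background given dextran sodium sulphate (DSS), a polysaccharide that injures the colonic epithelium. The methods of the study give 2% DSS for 5 days in mice at 2 months of age, and the day of sampling is not given in the sources used here. No library came from mice without DSS, so these data hold no comparison with uninjured colon. Nothing in the labels says that the libraries of a genotype came from separate mice, and the p-values then measure only the spread between these libraries.

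BMP ligands are secreted proteins that bind type I receptors such as BMPR1A together with type II receptors such as BMPR2. The activated receptor phosphorylates SMAD1 and its relatives, which enter the nucleus with SMAD4 and switch on target genes, among them Id1, Id2 and Id3. SMAD6 and SMAD7 are targets as well and block the pathway in negative feedback. In the colon, BMP signalling is known to be strongest toward the surface of the crypt, where it opposes stem cell renewal, while antagonists made around the crypt base keep it low there. ID proteins lack a DNA-binding region and hold basic helix-loop-helix E proteins away from DNA.

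The libraries held 15439123 to 20350539 counted reads. Levels are given as CPM, the count of a gene scaled to one common library size after TMM normalisation, or as RPKM, which also divides by the length of the annotated exons. Where 3 values are given for a genotype, they follow the order of replicates 1, 2 and 3. Fold changes are given as log2 of Nsd2 Vil-KO over Nsd2 f/f, with the standard error and 95% interval of edgeR's quasi-likelihood fit over all genes tested. Nsd2 was at 47.9, 51.2 and 24.6 CPM in Nsd2 f/f and at 24.2, 10.4 and 20.8 CPM in Nsd2 Vil-KO. The groups did not overlap, and the difference of -1.16 (standard error 0.39) passed the screening criterion defined in the next paragraph. It did not pass without Nsd2 f/f replicate 1 (-1.03) or without Nsd2 f/f replicate 2 (-0.97). Nsd2 shares 60 exonic bases with Nelfa on the opposite strand. The libraries labelled Nsd2 f/f replicate 3 and Nsd2 Vil-KO replicate 2 stood apart from the other 4: they held 4296 and 3684 counts of Xist, against at most 5 elsewhere, and mitochondrial genes took 19.6% of the counts in Nsd2 f/f replicate 3, against 5.51% to 9.13% elsewhere. In the 4 libraries without Xist, Nsd2 had a log2 fold change of -1.13 and passed. Member results that rest on the pair of libraries with Xist are given with and without them. Epithelial genes were abundant in all 6 libraries. Lgals4, the highest of 11 epithelial markers, lay between 3584 and 9261 CPM, and Krt20 and Muc2, markers of mature colonocytes and goblet cells, lay at 640 to 1432 and 2246 to 6857 CPM. Col3a1 of fibroblasts ranged from 0.67 to 138.6 CPM, S100a9 of leukocytes from 4.69 to 404.9, Acta2 of smooth muscle from 0.081 to 6.09 and Vwf of endothelium from 1.86 to 6.44.

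None of the 10 members passed the screening criterion of the study, a fold change above 1.2 with an unadjusted p below 0.05, here taken from edgeR's quasi-likelihood test. With no fold limit 0 of 10 passed as well, and DESeq2 passed 0 of 10. Of the 14650 genes tested, 482 passed in edgeR, which is 3.29%, and 4.32% passed in DESeq2. At an adjusted p below 0.05 there were 0 genes in edgeR, where the smallest adjusted p was 0.992, and 4 in DESeq2, none of them a member. Of the members, 4 had a positive and 6 a negative log2 fold change. Their median was -0.02, against 0.0012 over all genes tested. The genotypes did not overlap in 1 member, Bmpr1a, and did not overlap in 9.9% of all genes tested.

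**Figure D1:**
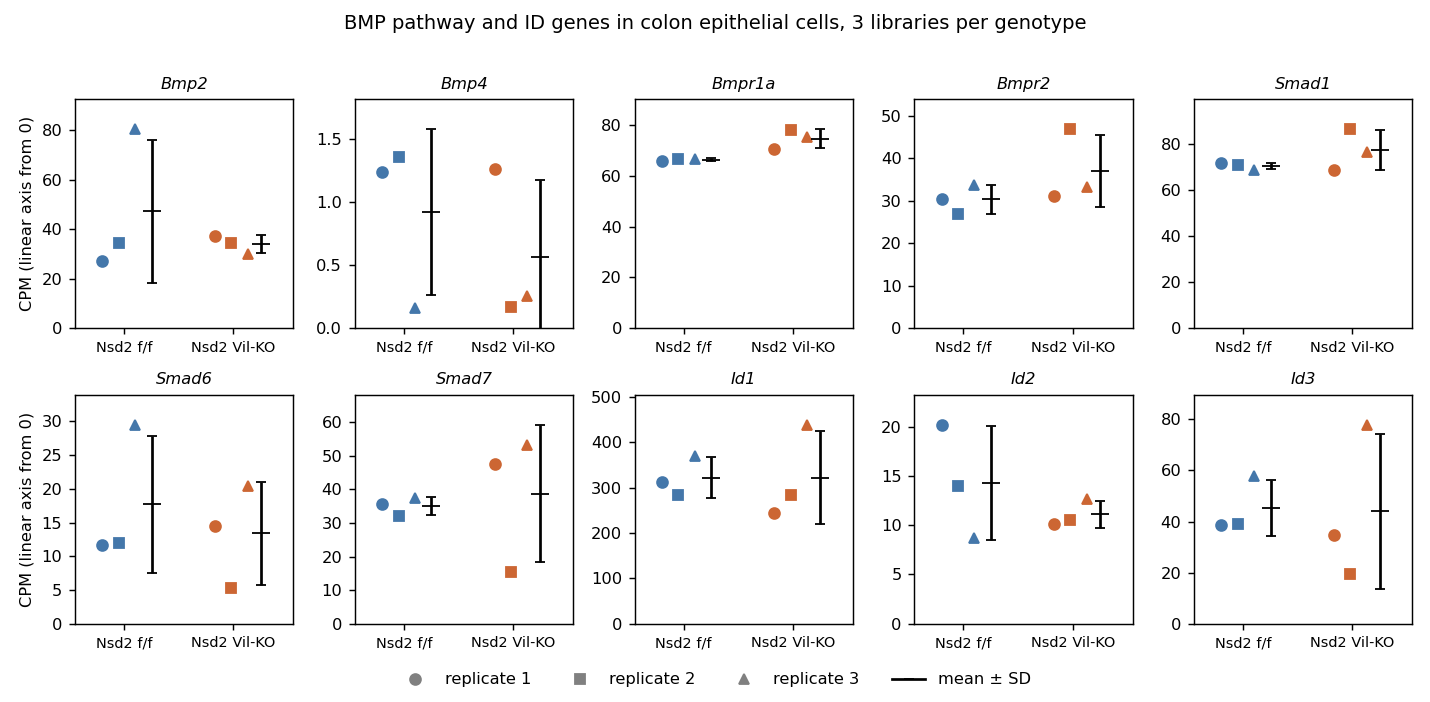
Level of the 10 members in each library, in CPM on linear axes that start at 0. Blue points are Nsd2 f/f libraries, orange points are Nsd2 Vil-KO libraries, the shape gives the replicate, and black bars give the mean ± SD of 3 libraries (the lower bar of Bmp4 in Nsd2 Vil-KO runs below 0 and is not drawn to its end). Bmpr1a is the member whose genotypes do not overlap, at 65.8 to 66.7 against 70.6 to 77.9 CPM.

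Per length of exon the members spanned a wide range of levels. Id1 was by far the highest, at 278 ± 61.1 RPKM (SD, n = 6 libraries of both genotypes), and its lowest library was above the highest library of Id3, the next in order, at 24.9 ± 11.4 RPKM. Smad1, Bmp2 and Bmpr1a followed at 11.8 ± 1.08, 11.4 ± 5.57 and 11.1 ± 0.80 RPKM, and the ranges of neighbours among these overlapped. Within libraries, Smad1 was above Bmp2 in 5 of 6. Bmp2 was above Bmpr1a in only 1 of 6, Nsd2 f/f replicate 3, on which its place by mean rests. Smad7 at 8.16 ± 2.93, Id2 at 5.20 ± 1.69 and Smad6 at 4.85 ± 2.62 RPKM also had overlapping ranges. Bmpr1a was above Smad7 in all 6 libraries. Bmpr2 followed at 1.88 ± 0.38 RPKM. Bmp4 was the lowest, at 0.33 ± 0.27 RPKM, and its highest library was below the lowest of Bmpr2. The level of Bmpr1a, in RPKM, was above that of Bmpr2 in every library. Id1 made up 88.3% to 94.1% of the summed RPKM of Id1, Id2, Id3 and Id4.

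Of the ligands, Bmp2 was the main one measured. It made up 56.0% to 87.4% of the summed RPKM of 12 BMP and GDF genes. These include Bmp1, which encodes a protease and not a ligand. Bmp2 (ENSMUSG00000027358, GRCm38 chromosome 2, 133552159 to 133562885, plus strand) was at 27.1, 34.3 and 80.4 CPM in Nsd2 f/f and at 37.4, 34.4 and 30.1 CPM in Nsd2 Vil-KO. Nsd2 f/f replicate 3 was high and the other 5 libraries lay close together, so the groups overlapped. Its log2 fold change was -0.47 (standard error 0.40, 95% interval -1.42 to 0.47), and it was 0.15 without Nsd2 f/f replicate 3 and 0.15 in the 4 libraries without Xist.

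The library with the high Bmp2 also had the highest summed level of markers of surface colonocytes, the mature absorptive cells at the top of the crypt. The summed CPM of 10 surface markers was 9841 there, against 3610 and 3898 in the other Nsd2 f/f libraries and 3733 to 4917 in Nsd2 Vil-KO. Of the 10 markers, 6 were highest in that library (Slc26a3, Car1, Car4, Aqp8, Guca2a and Saa1), while Clca4a was lowest there, at 33.5 CPM against 65.1 to 282 CPM elsewhere. All 10 markers were tested, none was at 0 in any library, and 1 (Emp1, named after its values were seen) passed the criterion, with a higher level in Nsd2 Vil-KO. The part of this cell type in the Bmp2 values was not tested. In bulk samples fewer cells of a type and less RNA per cell cannot be told apart.

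Bmp4 (ENSMUSG00000021835, chromosome 14, 46383520 to 46390669, minus strand), a ligand made largely by mesenchymal cells of the gut, was barely detected. It had 25, 23 and 2 counts in Nsd2 f/f and 26, 3 and 5 counts in Nsd2 Vil-KO, where a library with no read of a gene allows up to 3 counts, or 0.147 to 0.194 CPM. The libraries fell into a set near 1.3 CPM (1.24, 1.36 and 1.27) and a set at or below 0.26 CPM (0.16, 0.17 and 0.26), and each set held libraries of both genotypes. The log2 fold change of Bmp4 was -0.74 (standard error 0.88). It was -0.73 in the 4 libraries without Xist, -2.14 without Nsd2 Vil-KO replicate 1 and -0.34 without Nsd2 Vil-KO replicate 2. The 95% interval ran from -2.84 to 1.35, so at this spread between libraries any change within these limits remained compatible with the data. Fibroblast markers were high in the same 3 libraries: the sum of 10 markers was 371, 93.9 and 107 CPM where Bmp4 was high and 13.6, 13.6 and 27.4 CPM where it was low. All 10 of these markers were tested, 10 of 10 had a negative log2 fold change, 0 passed the criterion and none was at 0 in any library. The part of fibroblasts in the Bmp4 values was not tested.

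**Figure D2:**
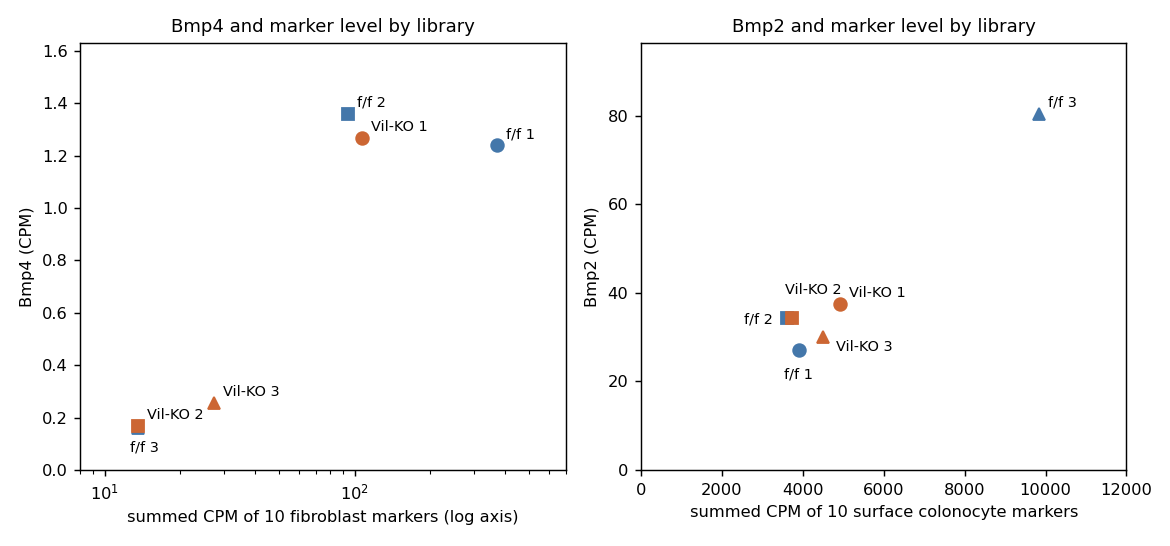
Left, Bmp4 against the summed CPM of 10 fibroblast markers (log axis), and right, Bmp2 against the summed CPM of 10 surface colonocyte markers (linear axis), with 1 point per library, blue for Nsd2 f/f and orange for Nsd2 Vil-KO. Bmp4 is at 1.24 CPM or more in the 3 libraries with the most fibroblast transcripts, and the single high value of Bmp2 (80.4 CPM) is in the library with the highest sum of surface colonocyte markers, although only 6 of the 10 markers are highest there.

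Of the receptors, Bmpr1a varied least between libraries of all members, and Bmpr2 varied more than Smad1 did. Bmpr1a (ENSMUSG00000021796, chromosome 14, 34410734 to 34503341, minus strand), the type I receptor, was at 65.8, 66.5 and 66.7 CPM in Nsd2 f/f and at 70.6, 77.9 and 75.2 CPM in Nsd2 Vil-KO. Every Nsd2 Vil-KO library was above every Nsd2 f/f library, which gives p = 0.1 in a two-sided exact permutation test, the smallest that 3 against 3 libraries can give. The difference was small: the means were 66.4 ± 0.49 and 74.6 ± 3.69 CPM (SD, n = 3), a fold of 1.12, which is under the fold limit of 1.2. On the log2 scale the difference was 0.17 (standard error 0.15, 95% interval -0.18 to 0.51). It lay between 0.14 and 0.22 in 18 alternative settings and did not pass in any of them. Bmpr1a shares 290 exonic bases with Gm17110, an antisense gene with 5 counts in all.

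Bmpr2 (ENSMUSG00000067336, chromosome 1, 59763400 to 59879014, plus strand), the type II receptor, was at 30.5, 26.9 and 33.8 CPM in Nsd2 f/f and 31.2, 46.9 and 33.3 CPM in Nsd2 Vil-KO. Nsd2 Vil-KO replicate 2 was high and the other 5 libraries overlapped. For Bmpr2 the log2 fold change was 0.29 (standard error 0.22, 95% interval -0.23 to 0.80) and it was 0.08 without that library.

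Smad1 (ENSMUSG00000031681, chromosome 8, 79338395 to 79399518, minus strand), which carries the signal from the receptors to the nucleus, was at 71.6, 71.1 and 69.0 CPM in Nsd2 f/f and 69.0, 86.5 and 76.6 CPM in Nsd2 Vil-KO. The groups overlapped at their edges. The log2 fold change of Smad1 was 0.13 (standard error 0.16, 95% interval -0.25 to 0.51), which was 0.04 in the 4 libraries without Xist. Between the lowest and the highest library, Bmpr1a spanned 0.24 and Smad1 0.33 on the log2 scale. Only 1.42% and 3.75% of the genes tested had a smaller range, and the median range was 1.10. The root mean square difference of these genes in centred log2 CPM over the 6 libraries was 0.062, the smallest of all pairs of members. Genes with small ranges lie close in this measure whatever their pattern, so it restates the small ranges.

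The inhibitory SMADs varied more between libraries than the receptors did. Smad6 (ENSMUSG00000036867, chromosome 9, 63953076 to 64022059, minus strand) was at 11.6, 11.9 and 29.5 CPM in Nsd2 f/f and 14.5, 5.33 and 20.4 CPM in Nsd2 Vil-KO. The highest and the lowest value were in the pair of libraries with Xist transcripts, and the groups overlapped. Its difference was -0.39 on the log2 scale (standard error 0.56, 95% interval -1.71 to 0.93). Smad7 (ENSMUSG00000025880, chromosome 18, 75367529 to 75395935, plus strand) was at 35.8, 32.1 and 37.3 CPM in Nsd2 f/f and 47.6, 15.3 and 53.3 CPM in Nsd2 Vil-KO. Nsd2 Vil-KO replicates 1 and 3 were above every Nsd2 f/f library and replicate 2 was below every one. Over all 6 libraries its log2 fold change was 0.14 (standard error 0.42, 95% interval -0.85 to 1.14).

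The call for Smad7 depended on that library. Without Nsd2 Vil-KO replicate 2 its log2 fold change was 0.53 and passed the criterion, as did 5.08% of the genes tested there, and in the 4 libraries without Xist it was 0.58 and passed. With limma-voom and quality weights, which gives less weight to libraries far from the others, it was 0.52 and passed, beside 9.83% of the genes tested. In the 4 libraries without Xist, Smad6 also passed, at 0.57, and so did Id2, in the other direction. That makes 3 of 10 members, where 1646 of 15030 genes tested passed, which is 11%. No member had an adjusted p below 0.05 in any setting.

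Set against Smad1 in the same library, the inhibitory SMADs show the same split. The ratio of Smad7 to Smad1, in RPKM, was 0.69, 0.63 and 0.75 in Nsd2 f/f and 0.96, 0.25 and 0.96 in Nsd2 Vil-KO. That of Smad6 to Smad1 was 0.32, 0.33 and 0.84 in Nsd2 f/f and 0.41, 0.12 and 0.52 in Nsd2 Vil-KO. Genes of the crypt base did not move together in Nsd2 Vil-KO replicate 2. Lgr5, the stem cell receptor, had 0.11 CPM there against 7.11 to 14.9 CPM in the others, and Ascl2, Axin2 and Smoc2 were also lowest there, whereas Sox9, of the same list, was highest there, at 90.6 CPM against 41.4 to 83.5 CPM. They are named here after their values were seen. The summed CPM of 10 crypt base and dividing cell markers was 277 to 859 in Nsd2 f/f, lowest in replicate 3, and 401 to 989 in Nsd2 Vil-KO, lowest in replicate 2. Of these 10 markers 9 were tested, 0 passed, and Olfm4 was at 0 in Nsd2 f/f replicate 3. Mki67, a gene of dividing cells and the highest of them, was at 70.3 to 288 CPM in Nsd2 f/f and 114 to 412 CPM in Nsd2 Vil-KO. Their part in the Smad6 and Smad7 values was not tested.

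**Figure D3:**
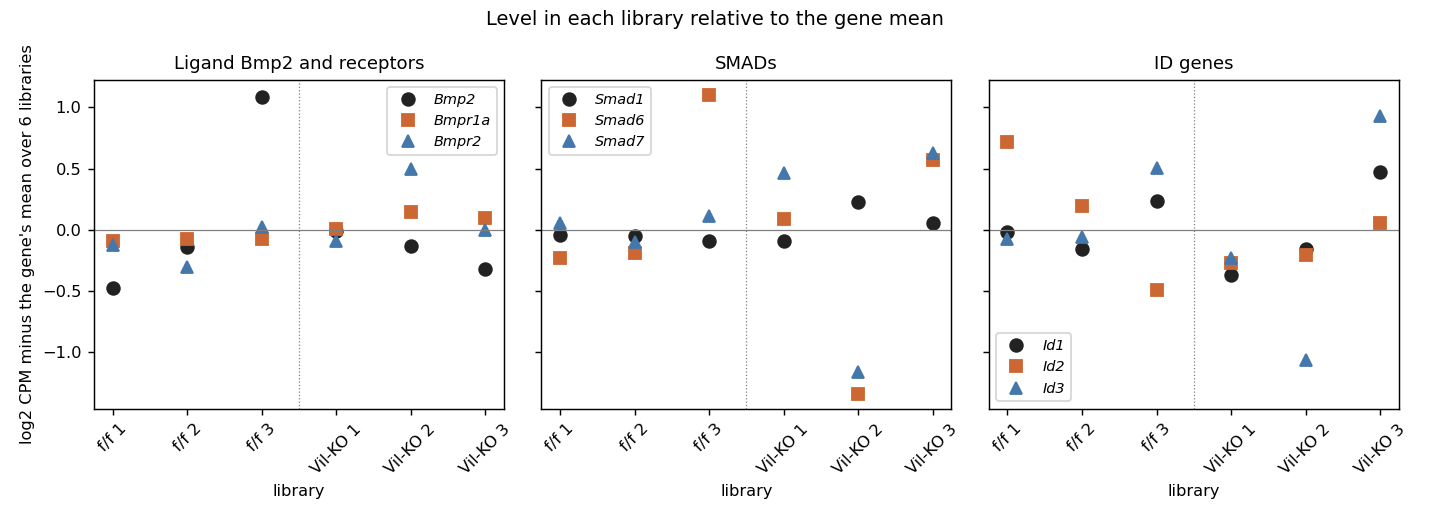
Log2 CPM of 9 members in each library minus the gene's mean over the 6 libraries, with Nsd2 f/f libraries left and Nsd2 Vil-KO libraries right of the dotted line. Bmpr1a and Smad1 stay within 0.23 of their means in every library, whereas Smad6, Smad7 and Id3 lie at -1.34, -1.16 and -1.06 in Nsd2 Vil-KO replicate 2. Bmp4, at 2 to 26 counts, is left out.

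The ID genes are close relatives, and their counts can be told apart only if reads differ between them. The most alike stretch of their coding sequences, 120 bases without gaps in the reading frame, is printed from GENCODE vM21 transcripts on GRCm38, with capitals where all 3 genes have the same base. It lies at chr2:152736518-152736637 (plus strand, coding bases 178 to 297) for Id1, at chr12:25095783-25095902 (minus strand, coding bases 109 to 228) for Id2 and at chr4:136144002-136144121 (plus strand, coding bases 124 to 243) for Id3. Each stretch is coding exon.
Id1: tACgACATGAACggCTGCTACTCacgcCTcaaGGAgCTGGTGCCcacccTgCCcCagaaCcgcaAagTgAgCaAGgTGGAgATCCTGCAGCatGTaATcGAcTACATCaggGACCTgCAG
Id2: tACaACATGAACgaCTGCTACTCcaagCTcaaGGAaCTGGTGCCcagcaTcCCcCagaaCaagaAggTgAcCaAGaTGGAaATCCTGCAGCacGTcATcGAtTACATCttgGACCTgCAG
Id3: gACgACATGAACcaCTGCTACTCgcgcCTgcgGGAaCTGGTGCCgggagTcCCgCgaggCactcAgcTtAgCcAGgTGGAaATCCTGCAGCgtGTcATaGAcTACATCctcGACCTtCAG
Capitals cover 77 of the 120 bases. Id1 and Id2 have the same base at 98 positions, Id1 and Id3 at 85, and Id2 and Id3 at 86. The longest identical run between any of their transcripts was 11 bases for Id1 and Id2, 12 for Id1 and Id3 and 19 for Id2 and Id3, all far shorter than the paired reads described in the methods. None of these genes shares exonic bases with another annotated gene.

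Id1 (ENSMUSG00000042745, chromosome 2, 152736251 to 152737410, plus strand) was at 312, 284 and 371 CPM in Nsd2 f/f and 244, 283 and 439 CPM in Nsd2 Vil-KO. The means were 322 ± 44.5 and 322 ± 103 CPM (SD, n = 3). The difference on the log2 scale was -0.0014 (standard error 0.27), with a 95% interval from -0.64 to 0.64. At this spread any difference within these limits remained compatible with the data. Its sign was positive in 8 of 18 alternative settings, where the value reached 0.20 at most.

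Id3 (ENSMUSG00000007872, chromosome 4, 136143497 to 136145755, plus strand) was at 38.8, 39.1 and 57.9 CPM in Nsd2 f/f and 34.7, 19.5 and 77.8 CPM in Nsd2 Vil-KO. Nsd2 Vil-KO held both the lowest and the highest library. Its log2 fold change was -0.04 (standard error 0.48, 95% interval -1.17 to 1.09), and it was 0.54 in the 4 libraries without Xist, where it did not pass. The ratio of Id1 to Id3, in RPKM, was 9.89 to 12.4 in Nsd2 f/f and 10.9, 22.4 and 8.71 in Nsd2 Vil-KO. The ratio was highest in the library where Smad6 and Smad7 were lowest.

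Id2 (ENSMUSG00000020644, chromosome 12, 25093799 to 25097140, minus strand) had another pattern. It was at 20.2, 14.0 and 8.64 CPM in Nsd2 f/f and 10.1, 10.5 and 12.7 CPM in Nsd2 Vil-KO. Nsd2 f/f replicate 3 was the lowest of all 6 libraries, while the other Nsd2 f/f libraries were the highest. For Id2 the log2 fold change was -0.37 (standard error 0.34, 95% interval -1.17 to 0.43). It was -0.03 without Nsd2 f/f replicate 1 and -0.58 in the 4 libraries without Xist, where it passed.

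Across the 6 libraries the centred values of Id3 lay closer to those of Smad6 and Smad7 than to those of the other ID genes. The root mean square difference in centred log2 CPM was 0.34 between Id3 and Smad6 and 0.36 between Id3 and Smad7, against 0.43 between Id3 and Id1 and 0.73 between Id3 and Id2. These values describe 6 libraries that share depth and cell composition effects and carry no test. The measure also depends on the range of each gene. On the log2 scale this range was 1.99 for Id3, 2.45 for Smad6 and 1.79 for Smad7, against 0.84 for Id1 and 1.21 for Id2. Over all genes tested, the 3 nearest to Id1 were Ehbp1, Dhrs13 and Fgf9 (0.095 to 0.10), those nearest to Id2 were Gm49967, Thsd4 and Lpcat2 (0.11 to 0.12), and those nearest to Id3 were Eml1, Ano1 and Krt78 (0.13 to 0.18).

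RefSeq promoter sequences (GRCm38.p6) matched 7 of the 10 members, and none was at hand for Id1, Bmp2 and Smad7. Shown are the 250 bases before the RefSeq transcription start of Id3 and Smad6, whose centred values lay close, and of Id2, whose values lay further off. For Id3 and Id2 this start lies inside the gene coordinates given above, so their windows fall within the annotated gene. The Smad6 window lies upstream of its gene. They were searched on both strands for GGCGCC, a GC-rich element bound by BMP-activated SMADs, and for GTCTG, the short SMAD-binding element, which reads CAGAC on the other strand. Capitals mark matches, and no match of one motif overlaps a match of the other. The regions are chr4:136143572-136143821 (plus strand) for Id3, chr9:64022060-64022309 (minus strand) for Smad6 and chr12:25096093-25096342 (minus strand) for Id2.
Id3: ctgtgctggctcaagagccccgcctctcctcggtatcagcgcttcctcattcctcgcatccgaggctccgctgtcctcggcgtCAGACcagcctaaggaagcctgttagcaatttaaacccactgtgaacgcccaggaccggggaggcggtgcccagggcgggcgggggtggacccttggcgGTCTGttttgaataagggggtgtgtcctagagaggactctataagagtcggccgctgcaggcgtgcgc
Smad6: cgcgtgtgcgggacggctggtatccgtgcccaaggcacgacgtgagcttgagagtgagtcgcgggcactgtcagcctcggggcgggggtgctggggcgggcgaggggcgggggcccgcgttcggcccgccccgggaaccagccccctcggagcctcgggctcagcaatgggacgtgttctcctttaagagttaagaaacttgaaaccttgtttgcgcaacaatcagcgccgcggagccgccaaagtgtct
Id2: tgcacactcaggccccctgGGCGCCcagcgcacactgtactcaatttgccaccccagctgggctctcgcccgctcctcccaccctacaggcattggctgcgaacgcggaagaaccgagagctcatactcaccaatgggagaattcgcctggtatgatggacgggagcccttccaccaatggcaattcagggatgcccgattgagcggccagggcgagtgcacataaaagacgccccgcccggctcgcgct
Id3 has 2 matches of GTCTG, starting 167 and 68 bases before the start, Id2 has 1 match of GGCGCC, 231 bases before it, and Smad6 has neither in this window. Of the 7 members with a promoter, 3 (Bmpr1a, Bmpr2 and Id2) held GGCGCC and 1 (Id3) held GTCTG. Over all 32851 promoters, 9.59% held GGCGCC and 42.2% held GTCTG. The member promoters were richer in G and C, at 62.8% to 78.8%, against a median of 52.4% over all promoters. The motif shares were not adjusted for this difference.

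**Figure D4:**
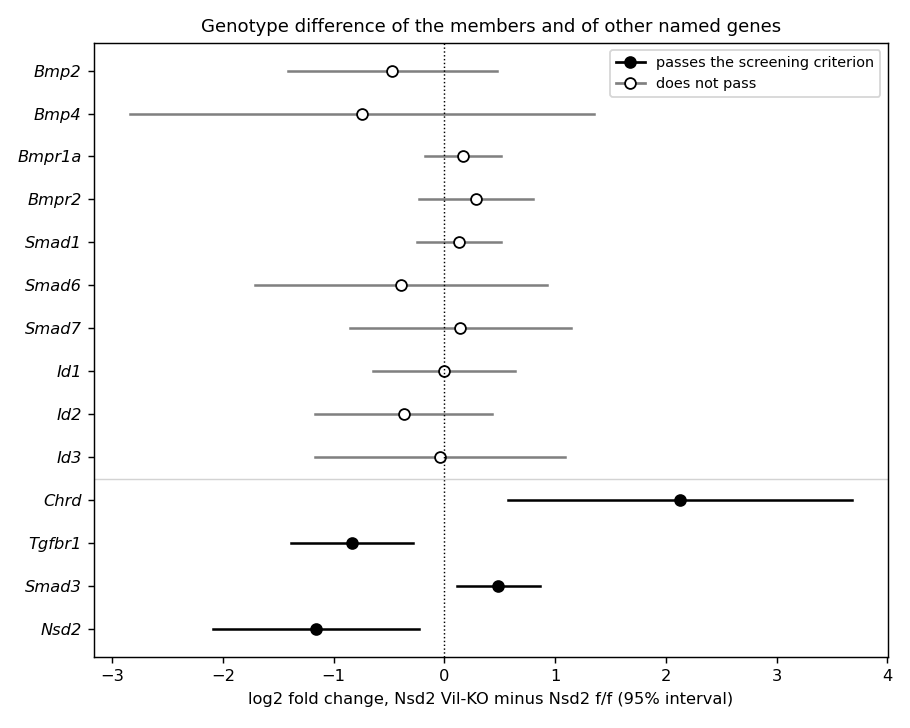
Log2 fold change, Nsd2 Vil-KO minus Nsd2 f/f, with its 95% interval from edgeR, for the 10 members (above the grey line) and for 4 other genes that passed the screening criterion. The interval of every member includes 0, and it is narrowest for Bmpr1a, Smad1 and Bmpr2 and widest for Bmp4.

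Of the genes around the members, 1 BMP antagonist passed the criterion with a higher level in Nsd2 Vil-KO. Chrd (ENSMUSG00000006958, chromosome 16, 20733127 to 20742384, plus strand) encodes chordin, a secreted protein that binds BMP ligands and keeps them from their receptors. It was at 7.04, 4.96 and 4.60 CPM in Nsd2 f/f and 11.7, 51.0 and 10.3 CPM in Nsd2 Vil-KO. The groups did not overlap, and Nsd2 Vil-KO replicate 2 was far above the others. The log2 fold change of Chrd was 2.12 (standard error 0.66, 95% interval 0.57 to 3.68, adjusted p = 0.992 in edgeR). Without Nsd2 Vil-KO replicate 2 it was 0.98, and in the 4 libraries without Xist it was 0.87. It passed the criterion in all 18 alternative settings.

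Per length, Chrd was still a minor transcript beside Bmp2 in most libraries. The ratio of Chrd to Bmp2, in RPKM, was 0.033 to 0.15 in Nsd2 f/f and 0.18, 0.84 and 0.19 in Nsd2 Vil-KO, so the groups did not overlap in this ratio. The 250 bases before the start of Chrd (chr16:20732877-20733126, plus strand) are shown because Chrd was the pathway gene with the difference.
Chrd: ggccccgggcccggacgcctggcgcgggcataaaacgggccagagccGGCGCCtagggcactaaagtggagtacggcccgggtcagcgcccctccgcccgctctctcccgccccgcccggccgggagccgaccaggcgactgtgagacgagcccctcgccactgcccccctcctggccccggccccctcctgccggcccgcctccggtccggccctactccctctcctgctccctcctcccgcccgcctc
They hold 1 match of GGCGCC, 203 bases before the start, and no match of GTCTG. Chrd shares 239 exonic bases with Thpo, which lies on the opposite strand and had 1686 counts in all, so its count can include reads of Thpo if strand was not used in counting. Leukocyte transcripts were also high where Chrd was highest: the sum of 14 markers was 1004 CPM in Nsd2 Vil-KO replicate 2, against 71.9 and 178 in the other Nsd2 Vil-KO libraries and 27.6 to 766 in Nsd2 f/f. All 14 were tested and 0 passed, and in Nsd2 f/f replicate 3 Cd4 and Adgre1 were at 0. Their part in the Chrd values was not tested.

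The other lists of BMP genes gave few calls. Of 10 other BMP and GDF genes, listed as ligands although Bmp1 is not one, 5 were tested and 0 passed. Bmp3, the highest of them, was at 15.7, 7.80 and 12.4 CPM in Nsd2 f/f and 20.3, 33.7 and 6.74 CPM in Nsd2 Vil-KO (log2 fold change 0.75, standard error 0.56). It was 0.18 without Nsd2 Vil-KO replicate 2 and 0.21 in the 4 libraries without Xist, and without Nsd2 Vil-KO replicate 3 it was 1.17 and passed. Of 11 antagonists and binding proteins, 4 were tested and 1, Chrd, passed. The highest was Twsg1, which binds BMPs together with chordin, at 41.9 to 50.0 CPM in Nsd2 f/f and 30.5 to 51.1 CPM in Nsd2 Vil-KO. Noggin, the antagonist encoded by Nog, had at most 0.059 CPM in any library and was not tested.

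Of 11 other receptors and co-receptors, 9 were tested and 0 passed. Neo1, which encodes the co-receptor neogenin, was the highest, at 68.3 to 113 CPM in Nsd2 f/f and 55.8 to 112 CPM in Nsd2 Vil-KO. Of 11 other SMADs and SMAD regulators, 10 were tested and 0 passed. Smad4, the partner shared by BMP and TGF-beta signalling, was the highest, at 188, 164 and 153 CPM in Nsd2 f/f and 184, 312 and 193 CPM in Nsd2 Vil-KO (log2 fold change 0.45, standard error 0.25). It was 0.17 without Nsd2 Vil-KO replicate 2 and 0.11 in the 4 libraries without Xist. In this list Nsd2 Vil-KO was above Nsd2 f/f without overlap in 2 genes (Smurf2 and Ski, against 5.21% of all genes tested) and below it in 1 (Ctdsp1, against 4.7%). They are named here after their values were seen.

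Of 10 other BMP targets only 3 were tested, since most were barely counted, and 0 passed. Klf10, the highest, was at 92.6, 64.7 and 33.3 CPM in Nsd2 f/f and 79.9, 55.6 and 77.6 CPM in Nsd2 Vil-KO. Of the 3 E proteins that ID proteins bind, all were tested and 0 passed. Tcf3, the highest, was at 41.7 to 65.7 CPM in Nsd2 f/f and 41.4 to 69.0 CPM in Nsd2 Vil-KO, with means of 57.1 and 57.2 CPM. Over these lists the medians were 0.75, -0.46, 0.23, 0.17, -0.36 and 0.01, in the order given, against 0.0012 over all genes tested.

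The related TGF-beta branch, which signals through other SMADs but shares SMAD4 and SMAD7, held 1 call in each direction among 10 tested of 14 genes, against 1.65% of all genes tested in each direction. Smad3, a transducer of TGF-beta and activin signals (ENSMUSG00000032402, chromosome 9, 63646767 to 63757994, minus strand), was at 57.6, 59.0 and 53.2 CPM in Nsd2 f/f and 80.6, 86.7 and 71.0 CPM in Nsd2 Vil-KO. The groups did not overlap and the spread within each was small. Its log2 fold change was 0.49 (standard error 0.16, 95% interval 0.11 to 0.87, adjusted p = 0.992 in edgeR), and Smad3 passed in 15 of 18 alternative settings. It did not pass without Nsd2 f/f replicate 1 (0.50), without Nsd2 Vil-KO replicate 1 (0.48) or with the replicate number as a block (0.49).

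Tgfbr1, the type I receptor for TGF-beta (ENSMUSG00000007613, chromosome 4, 47353222 to 47414931, plus strand), was lower in Nsd2 Vil-KO. It was at 20.7, 21.7 and 18.9 CPM in Nsd2 f/f and 9.02, 13.5 and 12.0 CPM in Nsd2 Vil-KO, with no overlap. For Tgfbr1 the log2 fold change was -0.83 (standard error 0.23, 95% interval -1.39 to -0.28, adjusted p = 0.992 in edgeR). It passed in all 18 alternative settings, at -1.01 to -0.68. Acvr1b, an activin receptor and the highest gene of the list, was at 92.7 to 112 CPM in Nsd2 f/f and 109 to 134 CPM in Nsd2 Vil-KO (log2 fold change 0.27, standard error 0.17) and did not pass.

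Of 8 markers of goblet cells, the mucus-secreting cells of the epithelium, 1 (Clca1, named after its values were seen) passed, at -1.64, and the other 7 did not pass and overlapped between the genotypes. All 8 were tested and had a negative log2 fold change (median -0.54), and none was at 0 in any library. Their summed CPM, which carries no test, was 14199 to 16432 in Nsd2 f/f and 9948 to 11153 in Nsd2 Vil-KO. Clca1 was -0.64 in the 4 libraries without Xist, where it passed, and did not pass without Nsd2 f/f replicate 3 (-1.06) or without Nsd2 Vil-KO replicate 1 (-1.77). Of 8 endothelial markers 4 were tested, and 2 passed in opposite directions without overlap: Vwf was at 1.86 to 2.90 CPM in Nsd2 f/f and 3.61 to 6.44 CPM in Nsd2 Vil-KO, and Pecam1, named after its values were seen, at 1.60 to 2.75 and 0.50 to 1.56 CPM. The adjusted p of both was 0.992 in edgeR. The part of goblet and endothelial cells in the values of Chrd, Smad3 and Tgfbr1 was not tested.

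**Figure D5:**
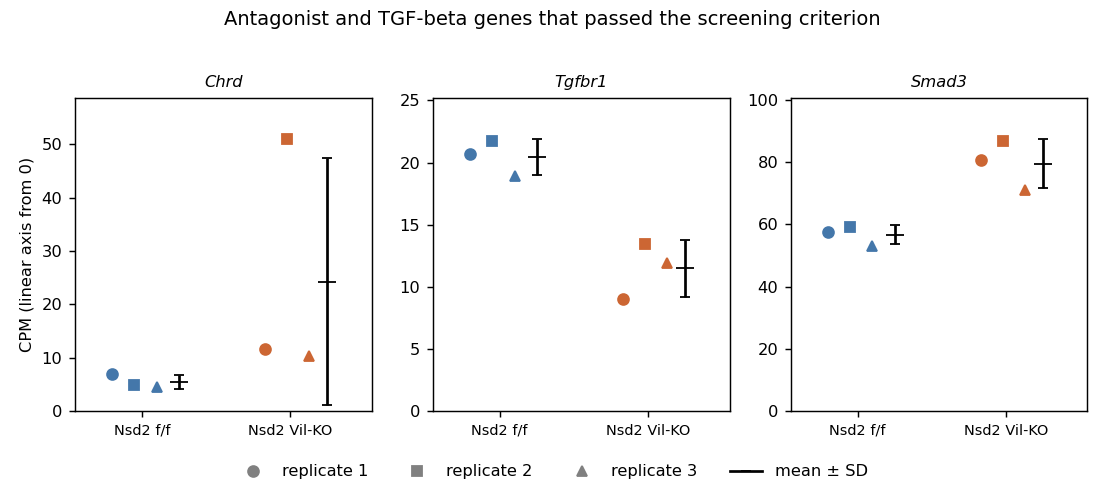
Levels of Chrd, Tgfbr1 and Smad3 in each library, in CPM on linear axes that start at 0, with the mean ± SD of 3 libraries per genotype as black bars. The genotypes do not overlap in any of these genes, and in Chrd the Nsd2 Vil-KO mean of 24.3 CPM rests on 1 library at 51.0 CPM beside values of 11.7 and 10.3.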

How the data were processed

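RNA-seq of colon IECs was analysed in 6 libraries, 3 per genotype, with groups and replicate numbers from the sample labels. The values deposited by the authors are raw gene counts, all whole numbers. Their methods describe polyA selection, a directional library kit (the labels name another kit), trimming with Cutadapt 1.9.1 and Trimmomatic 0.35 and alignment with HISAT2, and the labels give the build mm10. Which program counted the reads, and whether by strand, is not given in the sources used here. All count columns were used (0 left out), 0 rows lacked a gene name, and 99.5% of gene IDs were found in GENCODE vM21 (GRCm38), which gave coordinates and exon lengths.

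Counts were fitted in R 4.3.3 with edgeR 4.0.16 (TMM, filterByExpr with a minimum count of 10, robust quasi-likelihood test with no covariate, Benjamini-Hochberg adjustment over 14650 genes, biological coefficient of variation 41.2%). The study tested FPKM values with Ballgown, and its results and methods name different criteria (unadjusted p with a fold limit, and adjusted p), so both were counted. Exact permutation tests enumerated all 10 assignments, so that the smallest p is 0.1. Limma 3.58.1 and DESeq2 1.42.0 were alternatives, and the edgeR fit was tested on simulated counts. Depth was 15439123 to 20350539 counts per library, the floor of 3 counts covers counting error only, and intervals of fold changes cover the spread between libraries.

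The members, the gene lists, the tests and the alternatives were chosen with earlier results of these data known. The text names Nsd2, the members, every gene of the other BMP, E protein and TGF-beta lists that passed the criterion, the highest gene by mean CPM of each of these and of the marker lists, and for each ID gene the 3 genes with the nearest pattern. A term for the interaction of genotype with Xist, and the alternatives for Bmp3, Smad4, Acvr1b and Clca1, were added after the data were seen. Promoters came from RefSeq (GRCm38.p6). Figures were drawn with matplotlib 3.10.9.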

Additional observations from a re-analysis of the deposited data

Results flagged for a closer look

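An interaction of genotype and Xist was fitted after the data were seen, on libraries already known to stand apart (Nsd2 f/f replicate 3 and Nsd2 Vil-KO replicate 2 hold 4296 and 3684 Xist counts, the other 4 at most 5). With Xist the genotypes are compared by 1 library each, assumed to vary like the others, with 2 residual degrees of freedom, so the values describe these libraries and do not show that the genotype difference depends on Xist. In this fit 12% of all genes tested had an adjusted p below 0.05, and 3 of 10 members did. For Smad6 the interaction was -3.03 on the log2 scale (adjusted p = 0.00573 in edgeR): the genotypes differed by -2.27 with Xist, at 29.5 and 5.33 CPM, and by 0.51 without it, at means of 11.8 and 17.4 CPM (differences of log2(CPM + 1)). For Smad7 it was -1.86 (adjusted p = 0.00648 in edgeR), with differences of -1.23 and 0.56. For Bmp2 it was -1.36 (adjusted p = 0.0274 in edgeR), at 80.4 and 34.4 CPM with Xist and at means of 30.7 and 33.8 CPM without it. Id3 had differences of -1.53 and 0.41, and its interaction of -2.10 did not pass (adjusted p = 0.209 in edgeR).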

How the results depend on the processing

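All 10 members failed the screening criterion in the main setting and in each of the 20 alternatives except 3, where 1 passed with limma-voom and quality weights (Smad7), 3 in the 4 libraries without Xist, and 0 to 1 with each library left out in turn (Smad7 without Nsd2 Vil-KO replicate 2). The number of genes passing was 482, and it was 861 with no filter on low counts, 1440 with limma-voom, 1646 in the 4 libraries without Xist, 1145 with Xist as a covariate, 279 with a fold limit of 2, and 323 to 769 with each library left out. Of the other BMP pathway genes 1 of 31 tested passed (3.29% of all genes tested), against 3 of 49 with no filter (3.27%), 5 of 31 with limma-voom (9.83%), 5 of 31 in the 4 libraries without Xist (11%), 2 of 31 with Xist as a covariate (7.82%) and 1 to 3 of 31 or 32 with each library left out (2.14% to 5.08%), and Chrd was among them each time. Signs changed in 5 members. With each library left out, Bmp4 kept its sign and ranged from -2.14 to -0.34, Bmp2 ranged from -0.75 to 0.15, Smad6 from -0.83 to 0.19, Smad7 from -0.16 to 0.53, Id1 from -0.29 to 0.17 and Id3 from -0.74 to 0.32. With library size only, Id1 was 0.080 and Id3 0.098, and with no filter Id1 was 0.0079. With limma-voom, Bmp2 was 0.041, Smad6 0.45, Id1 0.17 and Id3 0.39. In the 4 libraries without Xist, Bmp2 was 0.15, Smad6 0.57, Id1 0.20 and Id3 0.54. Smad7 was -0.039 with limma on log2(CPM + 1) and -0.020 with Xist as a covariate, where Id1 was 0.0015. Nsd2 did not pass with library size only (-1.12). Clca1 did not pass with Xist as a covariate (-1.65). The cause was not tested. Bmp4 is not tested when at least 10 counts are required in each library. Same-numbered libraries correlated at 0.32, -0.35 and -0.11 in their deviations from the group means, and not every library correlated best with its own number. These correlations, from 3 libraries per genotype, cannot show whether the replicate numbers pair the libraries. When the replicate number was used as a block, 303 genes, 0 members and 1 other BMP gene passed and Smad7 was -0.034. With 3 libraries per genotype, the 95% interval of a member ran from -0.18 to 0.51 at its narrowest (Bmpr1a) and from -2.84 to 1.35 at its widest (Bmp4), which limits what could be detected.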
